A study of Mus musculus with 8 samples.

Results

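Neural cell-adhesion genes with a Klf6 chromatin immunoprecipitation (ChIP) peak were taken from 4 peak lists of primary mouse oligodendrocyte lineage cells. A gene was a member when the symbol given to a peak opened with Cntn, Cntnap, Cdh, Pcdh, Nrxn, Nlgn, Lrrtm, Lrrn, Slitrk or Flrt and went on with the family number (or, for Pcdh, the cluster letters), with the peak between -50 kb and +5 kb of the nearest RefSeq transcription start site (TSS). This gave 30 genes of the 3888 with any gene-annotated peak, and 61 of the 7855 gene-annotated peaks. Of the 36280 listed peaks, 28425 had no gene in range.

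A pair of stages of C57BL/6 cells were compared, each with 2 biological replicates called A and B. Oligodendrocyte progenitors (OLP) were kept proliferating in Sato medium with PDGF-AA and bFGF, and immature oligodendrocytes (iOL) were the same kind of culture after triiodothyronine (T3) at 40 ng/ml for 18 h. No genotype was changed in these cells, and each of the 4 ChIP samples was called against its own input, for which there is no separate file. The lists hold no expression values, so the identity of the cells could not be checked against marker genes, and a peak near a gene does not show that the gene was transcribed. The 4 samples held 12451 (OLP A), 7827 (OLP B), 10225 (iOL A) and 5777 (iOL B) peaks. The reads aligned per sample are not given in the sources used here, so a site without a peak was not called and is not shown to be unbound.

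Adhesion proteins of these families hold neural cells together and sort their contacts. Cadherins (Cdh) and protocadherins (Pcdh) bind like partners on neighbouring cells in the presence of calcium, and the clustered protocadherins, whose many variable exons lie side by side, give individual neurons different surface identities. Contactins (Cntn) and contactin-associated proteins (Cntnap) join axon and glial membranes, neurexins (Nrxn) face neuroligins (Nlgn) and LRRTM proteins across the synapse, and the leucine-rich Lrrn, Slitrk and Flrt proteins organise synapses and guide growing axons. Klf6 is a zinc-finger activator of a family that binds GC-rich DNA.

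Sequences are shown for 5 of the sites that were called in more than 1 sample. Such sites carry the recurrent signal at the adhesion genes. In the tallest peak of each site shown, 100% of the short stretches counted below occur more than once in the genome. The other recurrent sites had lower shares, from 54.4% (Lrrn3 at -29.1 kb) to 96.1% (Pcdhac1 at -16.9 kb). Those shown are thus the most repeated of the recurrent sites. The Pcdhga1 site, called in all 4 samples, was among those left out (86.2%). The Lrrn3 site at -29.1 kb, also left out, holds CCCTAA 12 times in a row. The sequences shown were read from the + strand of mm9. Capitals mark the bases that lay inside the peak of every sample that called the site. The Pcdh18 site at -42.4 kb of the TSS is chr3:49603568-49603810 and the second Pcdh18 site, at -43.2 kb, is chr3:49604312-49604445. The Slitrk1 site is chr14:109353893-109354041, the Slitrk6 site chr14:111195532-111195693 and the Lrrn3 site at -19.0 kb chr12:42231600-42231699. The GENCODE annotation places the Pcdh18 and Slitrk sites between genes, and the Lrrn3 site in an intron of Immp2l, the mitochondrial peptidase gene that holds Lrrn3 within it.
Pcdh18 -42.4 kb: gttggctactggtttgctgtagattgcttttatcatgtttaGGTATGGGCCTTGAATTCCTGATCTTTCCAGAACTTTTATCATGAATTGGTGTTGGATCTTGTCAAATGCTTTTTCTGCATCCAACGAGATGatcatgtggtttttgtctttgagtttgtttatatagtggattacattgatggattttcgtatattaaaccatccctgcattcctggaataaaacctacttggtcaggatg
Slitrk1 -40.5 kb: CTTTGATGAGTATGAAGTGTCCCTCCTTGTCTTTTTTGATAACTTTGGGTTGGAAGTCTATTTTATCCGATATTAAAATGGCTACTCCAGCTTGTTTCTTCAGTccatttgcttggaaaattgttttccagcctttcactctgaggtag
Pcdh18 -43.2 kb: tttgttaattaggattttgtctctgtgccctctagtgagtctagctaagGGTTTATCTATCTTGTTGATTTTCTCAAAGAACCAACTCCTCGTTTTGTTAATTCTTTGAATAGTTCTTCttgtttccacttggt
Lrrn3 -19.0 kb: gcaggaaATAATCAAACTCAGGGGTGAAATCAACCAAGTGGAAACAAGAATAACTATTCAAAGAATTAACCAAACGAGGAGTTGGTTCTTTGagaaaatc
Slitrk6 -41.3 kb: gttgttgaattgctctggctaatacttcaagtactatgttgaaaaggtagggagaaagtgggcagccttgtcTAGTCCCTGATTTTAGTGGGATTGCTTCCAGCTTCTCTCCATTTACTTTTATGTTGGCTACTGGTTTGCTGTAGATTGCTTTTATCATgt

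Some sites of different adhesion genes shared sequence. The second Pcdh18 site and the Lrrn3 site at -19.0 kb matched over 68 aligned bases on opposite strands, 66 of them identical, although they lie on chromosomes 3 and 12. The first Pcdh18 site and the Slitrk6 site held the same 38 bases on the same strand. The Slitrk1 site matched none of the other compared sequences over more than 9 aligned bases. The recurrent Slitrk3 site and the Lrrn3 site at -29.1 kb, not shown, reached at most 12 and 15 aligned bases. At each site, every stretch of 32 bases was counted in the genome on both strands. The median number of copies over the stretches of a peak depended on where the sample's peak began and ended. At the Pcdh18 site at -42.4 kb it was 1826.5 in OLP A, 2967 in OLP B, 1981 in iOL A and 1196.5 in iOL B. At the Slitrk1 site it ran from 3014 to 3222, and at the Lrrn3 site at -19.0 kb it was 52 in OLP B and 9038 in iOL B.

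For contrast, the next 3 sequences are the sites nearest to a TSS, outside exons and the protocadherin clusters, among those made mostly of single-copy sequence. Each was called in 1 sample only, and capitals mark the summit with 10 bases to either side. The Cntn4 site (chr6:105629698-105629860, intron of Cntn4) lies at +2.07 kb and was called in OLP A. The Flrt3 site (chr2:140504036-140504194) lies at -6.87 kb in an intron of Macrod2, the gene around Flrt3, and was called in OLP A. The Pcdh8 site (chr14:80174826-80174964) is intergenic, lies at -3.75 kb and was called in iOL A. In these 3 sites, 0% of the 32-base stretches occurred a second time in the genome.
Cntn4 +2.07 kb: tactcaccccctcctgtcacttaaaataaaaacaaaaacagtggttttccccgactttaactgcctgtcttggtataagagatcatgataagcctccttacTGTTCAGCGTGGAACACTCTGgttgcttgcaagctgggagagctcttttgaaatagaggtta
Flrt3 -6.87 kb: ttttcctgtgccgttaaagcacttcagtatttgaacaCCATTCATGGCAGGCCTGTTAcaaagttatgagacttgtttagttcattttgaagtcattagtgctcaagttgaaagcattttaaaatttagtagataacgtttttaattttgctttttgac
Pcdh8 -3.75 kb: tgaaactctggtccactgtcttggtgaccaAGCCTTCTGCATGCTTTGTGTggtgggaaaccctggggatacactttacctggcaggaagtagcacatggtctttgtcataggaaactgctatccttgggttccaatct

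Peaks were listed at 15 member genes in OLP A, 13 in OLP B, 15 in iOL A and 11 in iOL B. By peaks, the counts were 17, 16, 17 and 11 in the same order. iOL B, the sample with the fewest peaks in all, was lowest, and the other 3 samples lay close together. The mean was 14 ± 1.41 genes in OLP and 13 ± 2.83 in iOL (SD, n = 2 samples each), a difference of 1 gene (exact permutation test, two-sided, p = 1). For peaks the means were 16.5 ± 0.707 and 14 ± 4.24 (SD, n = 2), a difference of 2.5 peaks (exact permutation test, p = 1). With 2 samples against 2 this test cannot go below 0.33, so a stage difference could not have passed a threshold of 0.05. Neither direction was stable, as both differences were -2 with a window of -15 kb to +5 kb, and -1 gene and -0.5 peaks without iOL replicate B.

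As a share of all gene-annotated peaks of the sample, member peaks made up 0.620% of 2744 peaks in OLP A (95% Wilson interval 0.387 to 0.990%). The share was 0.971% of 1647 in OLP B (0.599 to 1.57%), 0.765% of 2222 in iOL A (0.478 to 1.22%) and 0.886% of 1242 in iOL B (0.495 to 1.58%). OLP A was lowest and OLP B highest, so the stages overlapped, and all 4 intervals overlapped too (OLP minus iOL -0.030 percentage points, n = 2 and 2, exact permutation p = 1). These intervals cover counting error only.

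**Figure D1:**
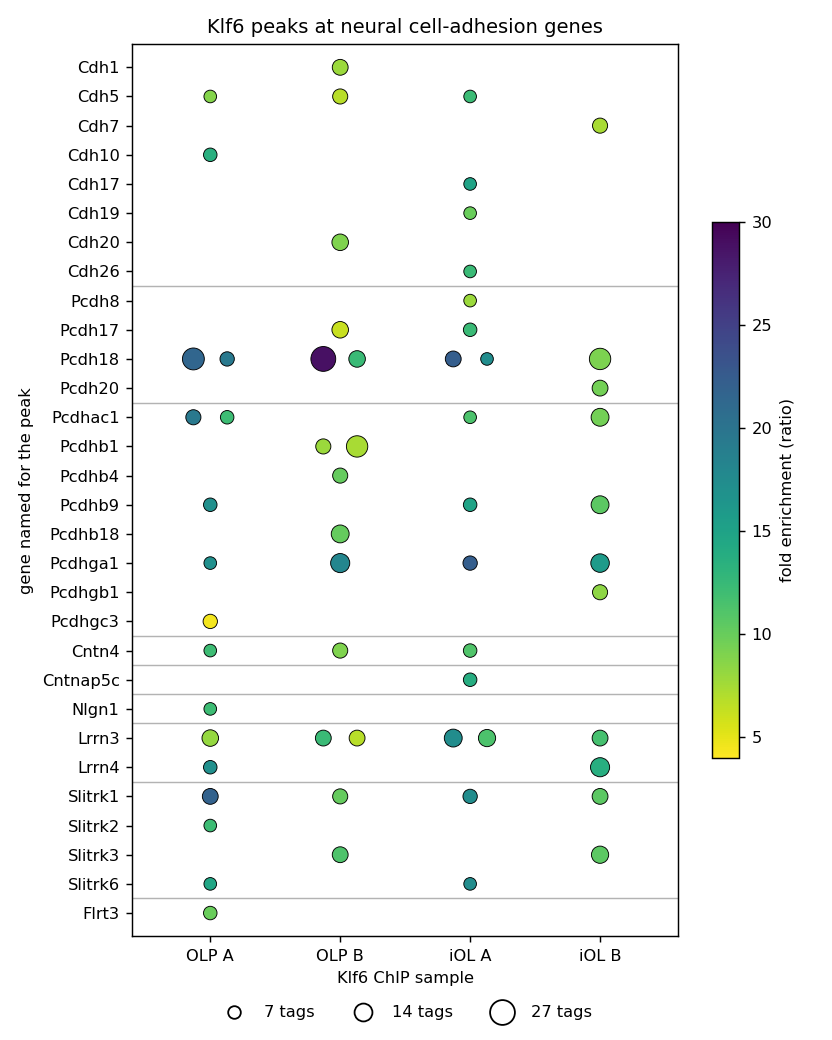
Peaks at the 30 genes (rows, grouped by family) in the 4 ChIP samples (columns). Each circle is 1 peak, its area proportional to the tag count and its colour the fold enrichment over the background expected by the peak caller. Pcdh18, Pcdhga1, Lrrn3 and Slitrk1 have a peak in every sample, 18 genes have one in a single sample, and the largest fold (28.93) is at Pcdh18 in OLP B.

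A total of 4 genes had a peak in all 4 samples (Pcdh18, Pcdhga1, Slitrk1 and Lrrn3), 4 in 3 samples (Cdh5, Cntn4, Pcdhac1 and Pcdhb9), 4 in 2 samples (Lrrn4, Pcdh17, Slitrk3 and Slitrk6) and 18 in 1 sample. By stage, 12 genes had a peak in both stages (40%), 10 in OLP only (33.3%) and 8 in iOL only (26.7%). Over all 3888 genes with a peak, these shares were 31.1%, 41.6% and 27.2%. A peak in 1 sample only was found for 60% of the members and 63.9% of all genes. A peak in all 4 samples was found for 4 of 30 members and 350 of 3888 genes. These differences were not tested. No member gene had a peak in both replicates of one stage and in neither replicate of the other (0 of 30 in either direction). Over all genes with a peak the corresponding counts were 128 of 3888 (3.29%) for OLP and 67 (1.72%) for iOL. Each of the 18 genes listed for a single stage therefore rested on 1 library.

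Of the non-clustered protocadherins, 4 of 12 RefSeq genes (33.3%) had a peak, against 15.7% of all protein-coding genes (not tested). Pcdh18, which encodes a delta-type protocadherin, carried the most tags. Its site at -42.4 kb held 21 tags in OLP A, 27 in OLP B, 11 in iOL A and 20 in iOL B, with fold enrichments of 21.48, 28.93, 22.33 and 9.17. The fold was thus lowest in iOL B although its tag count was close to that of OLP A. The 4 summits fell within 6 bp of each other. In OLP B the score of this peak (-10*log10 of p) was 202.3, above 99.5% of the gene-annotated peaks of that sample. A second Pcdh18 site at -43.2 kb held 9, 12 and 7 tags in OLP A, OLP B and iOL A, with folds of 19.45, 12.39 and 17.37, and was not called in iOL B. The other 3 genes showed lower and scattered peaks. Pcdh17 had 12 tags in OLP B at -41.3 kb and 8 in iOL A at -14.3 kb, 2 separate sites. Pcdh20 had 11 tags in iOL B (fold 9.51), with a false discovery rate of 6.07%, and Pcdh8 had 7 tags in iOL A (fold 7.96).

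Of the 57 clustered protocadherins, 8 were named for a peak, with 17 peaks at 12 sites, all on chromosome 18. These genes stand so close together that 1 peak often has several in range. Of the 61 member peaks, 12 listed another gene as well, and 24 further genes of the families appeared only behind a nearer one. Pcdhga1, the first variable exon of the gamma cluster, had a site at -28.8 kb in all 4 samples, with 7 tags in OLP A, 16 in OLP B, 9 in iOL A and 15 in iOL B. Its folds were 17.02, 18.02, 22.33 and 15.86, and its summits lay within 7 bp. Both replicates B held more tags there than both replicates A, whereas the folds of the 4 samples were close together. The smallest tag count among all gene-annotated peaks was also higher in the B samples (9 in OLP B and 10 in iOL B) than in the A samples (7 in each), and the part of that in this order was not tested.

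Pcdhac1, of the alpha cluster, had a site at -16.9 kb in OLP A (10 tags, fold 19.45) and iOL B (14 tags, fold 9.51). It also had single-sample sites at -31.9 kb in OLP A (8 tags) and at -18.2 kb in iOL A (7 tags). Pcdhb9 of the beta cluster had a site at -6.02 kb in OLP A (8 tags, fold 17.02) and iOL B (14 tags, fold 10.57, false discovery rate 5.58%), and another at -2.88 kb in iOL A (8 tags, fold 14.89). Both genes thus reached 3 samples through different sites. The remaining 5 cluster genes were each called in 1 sample. Pcdhb1 had 20 tags at -46.5 kb and 10 at -30.7 kb, Pcdhb18 had 14 and Pcdhb4 had 10 tags, all in OLP B. Pcdhgc3 had 9 tags in OLP A with the lowest fold of all members (4.47), and Pcdhgb1 had 10 tags in iOL B.

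Peaks were named for 8 of 23 classical and related cadherins (34.8%), against 15.7% of all protein-coding genes (not tested). These cadherins had 10 peaks at 10 sites, none found in a second sample. Several of these genes are known from tissues other than the brain, since the rule takes them by symbol. Cdh5, the VE-cadherin of endothelial cells, was named in 3 samples, but at 3 different sites. These lay at -31.6 kb in OLP A (7 tags, fold 8.81), -29.9 kb in OLP B (10 tags, fold 6.76) and -24.2 kb in iOL A (7 tags, fold 12.32). Cdh1, the E-cadherin of epithelia, had 11 tags in OLP B at +4.71 kb in its own intron, the farthest downstream of the member peaks. Cdh17, the cadherin of intestine and liver, had 7 tags in iOL A (fold 14.89). The type II cadherins Cdh7, Cdh10, Cdh19 and Cdh20 had 10 tags in iOL B, 8 in OLP A, 7 in iOL A and 12 in OLP B, with folds of 7.44, 13.6, 9.92 and 9.01. Cdh26 had 7 tags in iOL A (fold 12.41), in an exon of a neighbouring transcript.

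Peaks were named for 1 of 6 contactins (16.7%) and 1 of 7 Cntnap genes (14.3%), close to the 15.7% of all protein-coding genes. Cntn4, a contactin of the immunoglobulin superfamily, was the only 1 of 6 contactins with a peak, and it again had a different site in each of 3 samples. These held 7 tags in OLP A at +2.07 kb, 10 in OLP B at -34.7 kb and 8 in iOL A at -13.6 kb, with folds of 12.15, 9.01 and 11.2. The OLP B site was measured from the start of a transcript that begins inside the gene, and lies in a Cntn4 intron. Of 7 Cntnap genes, Cntnap5c had 8 tags in iOL A (fold 13.85). Of the synaptic pair of neurexins and neuroligins, 0 of 3 neurexins and 1 of 3 neuroligins were named. Nlgn1 had 7 tags in OLP A (fold 12.15) at -37.2 kb of the RefSeq start, which is -235419 bp from the GENCODE start of the same gene. None of the 4 LRRTM genes was named.

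Among the leucine-rich families, peaks were named for 4 of 6 Slitrk genes, 2 of 5 Lrrn genes and 1 of 3 Flrt genes. As given above, none of the LRRTM genes was named, and these families are too small to compare with the 15.7% over all protein-coding genes. Slitrk1, a synaptic organiser that binds receptor tyrosine phosphatases, had 1 site at -40.5 kb in all 4 samples, with 11 tags in OLP A, 10 in OLP B, 9 in iOL A and 11 in iOL B. Its folds were 21.88, 10.13, 17.37 and 10.57, higher in both A samples than in both B samples, and the summits lay within 7 bp. Slitrk3 was called at -41.7 kb in the 2 B samples (11 tags in OLP B, 13 in iOL B), where the iOL B peak had a false discovery rate of 5.74%. Slitrk6 was called at -41.3 kb in the 2 A samples (7 tags each, folds 14.58 in OLP A and 17.37 in iOL A). Slitrk2 had 7 tags in OLP A at -38.0 kb. All Slitrk peaks thus lay far upstream, and none lay inside a Slitrk gene.

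Lrrn3, a leucine-rich transmembrane protein of neurons, had 6 peaks and was named in all 4 samples, but no single site was called in all of them. The site at -19.0 kb had 11 tags in OLP B and 11 in iOL B, with folds of 12.39 and 11.63 and summits 1 bp apart. The site at -29.1 kb joined peaks of 12 tags in OLP A, 11 in OLP B and 13 in iOL A. Its OLP A and iOL A peaks overlap, whereas the OLP B summit lies 237 bp from the farthest of theirs. With at least 1 shared base required, the OLP B peak is a site of its own. Another site at -43.3 kb had 14 tags in iOL A (fold 17.37). Lrrn4 had 8 tags in OLP A at -7.89 kb (fold 17.02) and 16 in iOL B at -9.83 kb (fold 13.74), again different sites. Flrt3, which binds latrophilins and Unc5 receptors, had 8 tags in OLP A (fold 9.95), the only 1 of 3 Flrt genes with a peak.

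**Figure D2:**
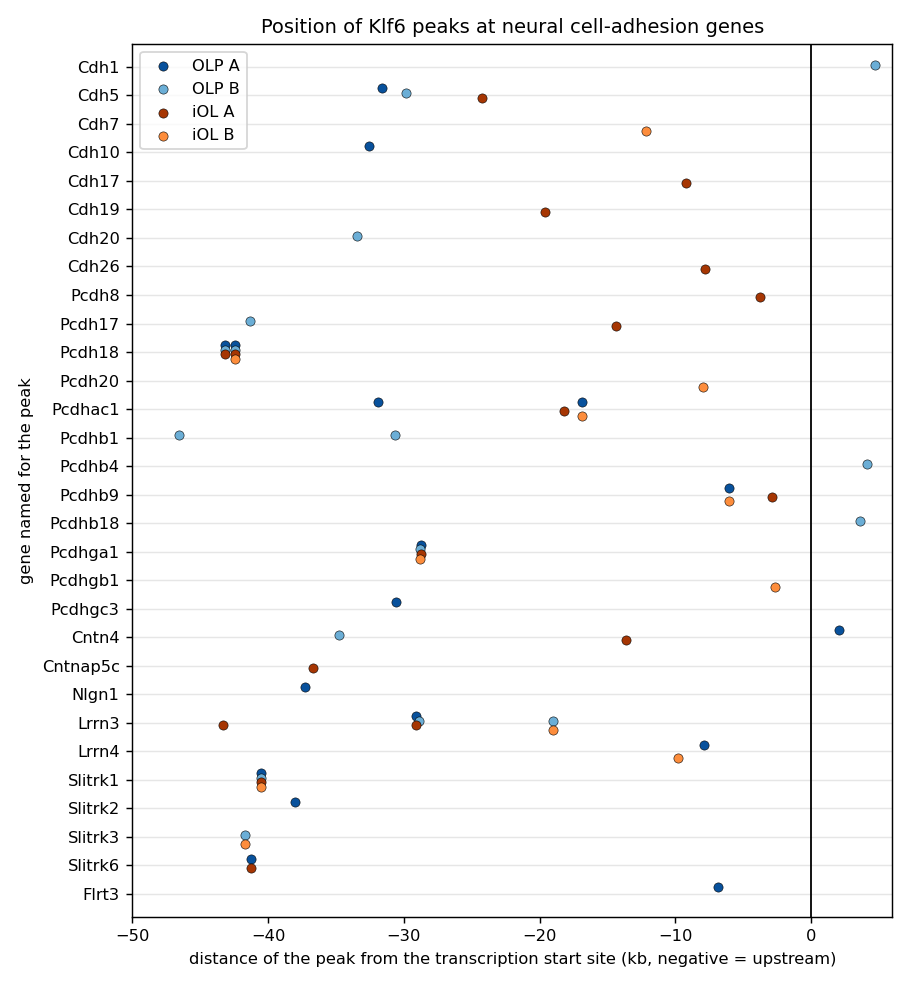
Distance of each peak from the TSS of the gene it was named for (kb, negative upstream), with 1 row per gene and 1 colour per sample. Vertically stacked points are peaks of different samples at 1 site, as at Pcdh18, Pcdhga1 and Slitrk1, whereas Cdh5 and Cntn4 have a separate site in each sample, and no point falls within 2 kb of a TSS.

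Of 129 RefSeq genes in these families, 30 (23.3%) had a listed peak in at least 1 sample, against 15.7% of 21900 protein-coding genes. The member genes are not independent of each other, since 57 of the 129 stand in clusters, and the difference was not tested. Partners and other adhesion genes were taken from lists of 83 genes. Of these, 22 (26.5%) had a peak, with 28 peaks in all, and 2 of the 22 genes were called in more than 1 sample. For comparison, 63.9% of all 3888 genes with a peak and 60% of the members were called in 1 sample only. Recurrence among these listed genes was thus lower than over all genes, and the difference was not tested. The 2 recurrent genes were Ntng1, a netrin-G ligand of leucine-rich synaptic proteins (13 tags in OLP B, 8 in OLP A and 13 in iOL B at -18.7 kb), and Lingo2, of the leucine-rich LINGO family (10 tags in iOL A and 13 in iOL B at -23.3 kb, and 2 other sites in OLP B).

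The groups of these lists are too small to compare with the 15.7% over all protein-coding genes. By group, peaks were named for 3 of 7 catenins, which tie cadherins to actin (Ctnna2, Ctnna3 and Ctnnd2). All catenin peaks were in OLP A, the sample with the most gene-annotated peaks (2744). Peaks were also named for 3 of 6 genes of the L1 and NCAM group (Chl1, Ncam1 and Nfasc). They were named for 4 of 14 neurexin partners (among them Cbln1 and Nxph2), 2 of 6 Slitrk partners (Il1rapl2 and Ptprd) and 2 of 11 Flrt partners (Lphn3 and Unc5d). The other groups had 1 of 5 IgLON genes, 1 of 8 SynCAM and nectin genes, and 2 of 8 genes of the Dscam, sidekick and Robo receptors. A list of other leucine-rich synaptic proteins and their ligands had 3 of 14 (Lingo2, Lrfn3 and the ligand Ntng1). A list drawn up for axon-glia adhesion of myelin had 2 of 8 (Mpzl1, and Nfasc, which was also counted in the L1 and NCAM group). Its 2 peaks were in iOL A (Nfasc, 7 tags, fold 4.53 at -42.7 kb) and iOL B (Mpzl1, 26 tags, fold 7.35 at -7.14 kb). A role of Mpzl1 in contacts of axon and glia was not examined here. Within 2 kb of a TSS lay the peak of Ncam1 (10 tags in iOL B at 0.061 kb) and 1 of the 2 Ctnna3 peaks (8 tags in OLP A at -0.573 kb).

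Member peaks were of ordinary height. The median fold enrichment of member peaks was 13.6 in OLP A, 9.57 in OLP B, 13.85 in iOL A and 10.57 in iOL B. Over all gene-annotated peaks the medians were 14.58, 9.01, 14.89 and 10.57. The median tag counts were 8, 11, 8 and 13 at the members against 8, 12, 8 and 13 over all. Member peaks held 7 to 27 tags, so none belonged to the tallest peaks of the lists, which reached 2375 tags in OLP A, 692 in OLP B, 2409 in iOL A and 3300 in iOL B. Tags and folds were not scaled between samples, so the orders of samples given above describe the listed values and are no test of binding. A count of 7 to 13 tags leaves a large counting error on each peak.

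**Figure D3:**
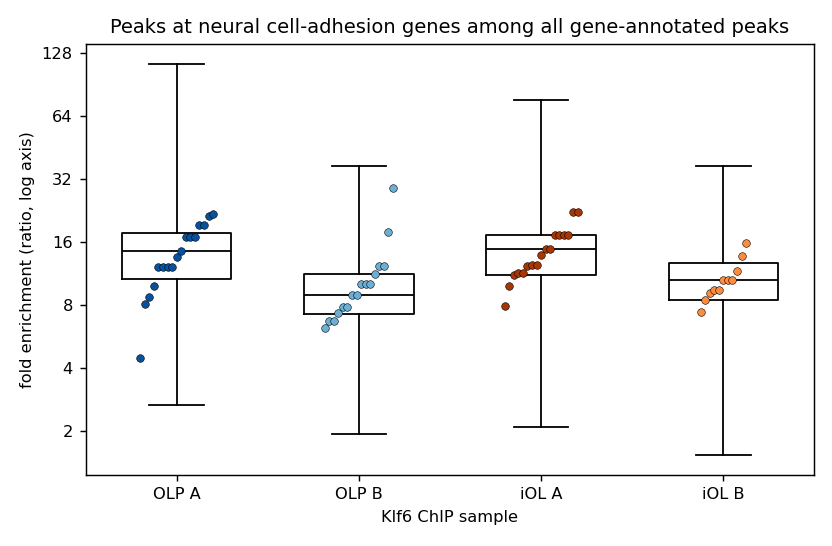
Fold enrichment (ratio, log axis) of member peaks (points) over boxplots of all gene-annotated peaks of the sample (median, quartiles and full range). The points lie mostly in or near the boxes, the OLP B peak of Pcdh18 at 28.93 stands above the other members, and the member medians run from 9.57 to 13.85.

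By peaks, members lay farther upstream than the lists as a whole. Among the 61 peaks, 0 were within 2 kb of a TSS, against 5.04% of all gene-annotated peaks, 1.28% at ion channel and transmitter receptor genes (1 of 78) and 2.62% at olfactory receptor genes. For members the interval from -50 to -40 kb held 18 (29.5%) against 14.7%. The median distance was -29.1 kb for members and -20.1 kb over all. Part of this came from sites called repeatedly, as 7 of those 18 peaks were the Pcdh18 sites and 4 were Slitrk1. With each site counted once, 8 of 43 member sites (18.6%, 95% Wilson interval 9.74 to 32.6%) lay in that interval against 14.1% of all 5480 sites. The count within 2 kb was 0 of 43 sites, with an upper limit of 8.20%, against 6.26% of all sites, so an absence at start sites was not detectable with so few sites. Both intervals by site thus contained the share over all sites. Of the member peaks, 42 were intergenic, 17 in introns and 2 in exons.

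Peaks were joined into sites when at most 500 bp separated them. The 61 member peaks formed 43 sites. Of these, 33 (76.7%) were called in 1 sample, 5 in 2, 2 in 3 and 3 in all 4, and over all 5480 gene-annotated sites 76.7% were called in 1 sample. The 3 sites in all 4 samples (Pcdh18, Pcdhga1 and Slitrk1) were 6.98% of the member sites, against 5.18% of all sites. Read against this background, recurrence at the adhesion genes was close to that of the lists as a whole.

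The same holds between pairs of samples. In OLP A, 5 of 17 member peaks had an OLP B peak within 500 bp (29.4%, 95% Wilson interval 13.3 to 53.1%), against 20.9% of all gene-annotated peaks. From OLP B to OLP A it was 5 of 16 (31.2%) against 34.1%. From iOL A to iOL B it was 3 of 17 (17.6%) against 25.9%, and from iOL B to iOL A 3 of 11 (27.3%) against 45.3%. Between the stages, 6 of 17 member peaks of OLP A had an iOL A peak nearby (35.3%) against 29.6%, and 5 of 16 of OLP B an iOL B peak (31.2%) against 27.3%. In the reverse direction, 6 of 17 peaks of iOL A had an OLP A peak nearby (35.3%) against 36.5%, and 5 of 11 of iOL B an OLP B peak (45.5%) against 36%. Every interval of a member share contained the share over all peaks. The share found in the other stage (same letter) was above the share found in the other replicate in 3 of 4 samples and equal in OLP B, with intervals that overlapped in every sample. Over all gene-annotated peaks it was above in both A samples and below in both B samples. With the other stage and the other letter, member shares were close to those of the same letter. They were 29.4% (OLP A in iOL B), 31.2% (OLP B in iOL A), 29.4% (iOL A in OLP B) and 45.5% (iOL B in OLP A).

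**Figure D4:**
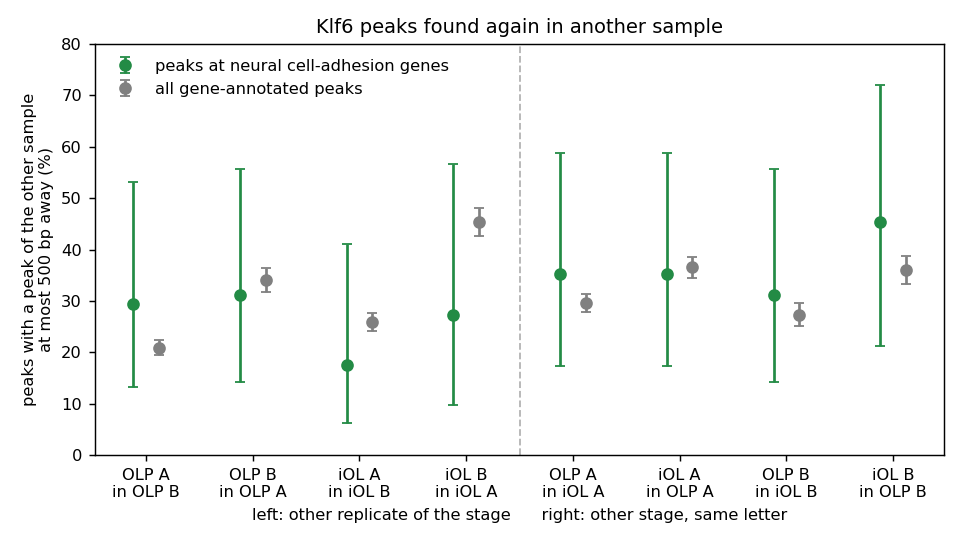
Share of peaks with a peak of a second sample at most 500 bp away (%), for member peaks (green) and for all gene-annotated peaks (grey), with 95% Wilson intervals. Member shares run from 17.6 to 45.5%, and each green interval covers the grey point beside it.

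Recurrence went together with repeated sequence. A site was called repeated when over 50% of the 32-base stretches of its tallest peak occur more than once in the genome. All 10 member sites called in 2 or more samples were repeated, against 21 of the 33 called in 1 sample (63.6%, 95% Wilson interval 46.6 to 77.8%). Over all gene-annotated sites the shares were 70.4% for 1 sample, 92.4% for 2 and 95.8% for 3 or 4. In all, 31 of 43 member sites (72.1%) were repeated, against 75.9% of all sites. The class followed the tallest peak, and peaks joined into 1 site could differ. At the Lrrn3 site at -29.1 kb, 54.4% of the stretches were repeated in the tallest peak (iOL A) and 0% in the OLP B peak. The 12 member sites made mostly of single-copy sequence were those of Cdh20, Cdh26, Cntn4 (2 sites), Flrt3, Pcdh8, Pcdh17 at -41.3 kb, Pcdhac1 at -31.9 kb, Pcdhb1 at -46.5 kb, Pcdhb4, Pcdhb18 and Pcdhgb1, each called in 1 sample. Among peaks, OLP B had the fewest repeated ones, with 9 of 16 member peaks (56.2%) against 14 of 17 in OLP A, 15 of 17 in iOL A and 10 of 11 in iOL B, and it was also lowest over all gene-annotated peaks (68.9%, against 81.2 to 87.1% in the other samples). The part of repeated sequence in the calls was not tested, and reads of such sequence can be placed at more than 1 copy.

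**Figure D5:**
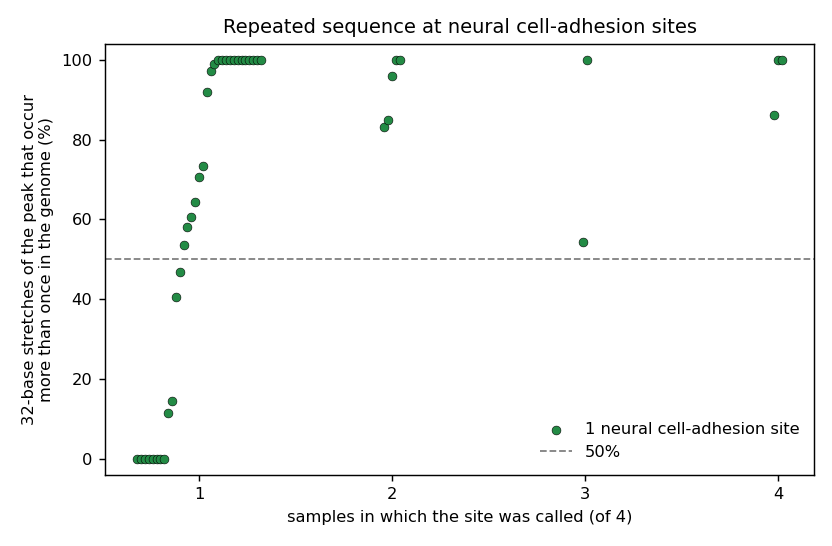
Each point is 1 of the 43 member sites, placed by the number of samples it was called in. The vertical axis is the share of the 32-base stretches of its tallest peak that occur more than once in the genome (%). All sites in 2 or more samples lie above the 50% line (dashed), while sites in 1 sample run from 0 to 100%.

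The sequence around member summits was not GC-rich. The median GC content within 100 bases of the summit was 38.3% in member peaks and in all gene-annotated peaks, against 41.8% of the genome. The cores CCACCC and CCGCCC, which differ in a single letter, were searched on both strands of the same window. They served as examples of the GC-rich sequence that Klf proteins bind. A core was found at 8 of 61 member peaks (13.1%, 95% Wilson interval 6.80 to 23.8%), against 6.06% of all gene-annotated peaks, 7 times as CCACCC and 1 time as CCGCCC. By site it was 7 of 43 (16.3%) against 6.42%. Among peaks at ion channel and transmitter receptor genes, 8 of 78 held a core (10.3%, 95% Wilson interval 5.29 to 19.0%). At olfactory receptor genes the share was 3.35% of peaks. Of the 33 sites called in 1 sample, 6 held a core, those of Cdh5 (-24.2 kb), Lrrn4 (-9.83 kb), Pcdh17 (-14.3 kb), Pcdhb1 (-46.5 kb), Pcdhb18 and Pcdhgc3. Of the sites called in more samples, 0 of 5 in 2 samples and 1 of 5 in 3 or 4 samples held one. The latter was the Lrrn3 site at -29.1 kb, called in 3 samples, with a core in the OLP A and iOL A windows and none in the OLP B window. A match describes letters in the window and does not show binding, and the differences in core share were not tested.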

How the data were processed

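By the labels and the study's methods, chromatin was precipitated with a rabbit polyclonal anti-Klf6 antibody, and the submitters' processing notes name CASAVA 1.8, Bowtie2 and mm9. The authors called peaks per sample with MACS and assigned RefSeq start sites. The MACS version and read depth are not given in the sources used here. The deposited lists give raw tag counts, a score (-10*log10 of p), the fold enrichment as a ratio to background, and a false discovery rate in percent, none of them scaled across the 4 samples. Tests and shares therefore rest on where peaks lie, and tags and folds of single sites are given as listed, without a test.

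Members and lists were chosen with earlier results of these data known. Named genes had a peak in 3 or more samples, were called in both replicates of 1 stage alone, held 1 of the 3 largest folds of a sample, had the most peaks of their family, or lay within 2 kb of a TSS, and all other members were also given. Of 3888 symbols, 3434 matched protein-coding RefSeq genes (GRCm38.p6, names only), and 3432 genes resulted. Sequence came from NCBIM37, which is mm9 (0 of 36280 peaks past a chromosome end), and gene bodies from GENCODE M1. Counts were compared with two-sided exact permutation tests and shares given with 95% Wilson intervals. Whether replicates came from separate animals is not stated in the labels, so p-values measure the spread between these samples. Overlap and repeat counting were tested on simulated data. Limits on tags, score, FDR, window, gap and symbols, each sample left out, and a replicate block were tried. Scripts ran in Python 3.11.15 with scipy 1.17.1 for intervals, pandas 2.3.3 for tables, numba 0.67.0 for repeat counting, numpy 2.4.6 and, for plots, matplotlib 3.10.9.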

Additional observations from a re-analysis of the deposited data

Results flagged for a closer look

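Peaks without a listed TSS were outside the comparisons above, and many lay inside adhesion genes. Within the GENCODE bodies of the families (97 bodies) there were 253 peaks, of which 237 (93.7%) had no gene in the lists, against 5468 of 7303 (74.9%) in the bodies of all protein-coding genes. The lists name a gene only within the window around a TSS, so a peak farther inside a gene has no name unless another TSS is near. The adhesion bodies were also longer per gene, with 22.8 Mb for 96 genes against 995 Mb for 22225 protein-coding genes. The unnamed shares therefore depend on gene length and cannot be compared directly, and the part of length was not tested. The 253 peaks lay in 39 of the bodies. Per sample, 74 of 81 such peaks in OLP A had no listed gene, 61 of 65 in OLP B, 62 of 64 in iOL A and 40 of 43 in iOL B. The bodies, 22.8 Mb in all, held 11.1 peaks per Mb over the 4 samples, against 7.34 per Mb in the bodies of all protein-coding genes and 13.7 per Mb in the whole genome. The most were at Pcdh15, a protocadherin of hair cells, with 9, 7, 10 and 5 peaks in OLP A, OLP B, iOL A and iOL B at 15 sites, 4 of them called in all 4 samples. Pcdh9 also had 15 sites (17 peaks), Pcdh11x 9 (22 peaks) and Cntnap2, the partner of contactins at the juxtaparanode, 11 (15 peaks). Families without a listed peak appeared here, with 11 peaks in Nrxn3 and 14 in Lrrtm4. Of 161 sites in the adhesion gene bodies, 14 were called in all 4 samples (8.70%), against 4.90% in the bodies of all protein-coding genes, and this was not tested.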

How the results depend on the processing

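Of 134 recomputed values, 94 kept their direction, side of the threshold or range, 11 turned and 29 moved. The stage differences (OLP minus iOL) turned most easily. With a window of -15 kb to +5 kb both genes and peaks gave -2 (exact permutation p = 0.333). Without iOL replicate B the gene difference was -1 and the peak difference -0.5, and over all samples left out in turn they ran from -1 to 3 and from -0.5 to 5.5. The difference in share became 0.0687 percentage points with FDR under 5%, 0.0872 with at least 10 tags, 0.0181 with a score of at least 50, 0.000484 with a member listed at any place and 0.509 with at most 50% of the stretches repeated, and ran from -0.206 to 0.146 with a sample left out. With the replicate block the differences were 1 gene, 2.5 peaks and -0.030 points (exact sign flips, p = 1 for each), and the block changed no call. The last 2 settings, repeats and place of listing, were chosen after seeing the data.

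Sites fell from 43 to 23 with at least 10 tags, 22 with a score of at least 50, 17 in the narrow window and 13 without repeated peaks, and were 32 to 39 with a sample left out. Sites in 2 or more samples fell from 10 to 1 in the narrow window and 0 without repeated peaks, and were 6 (without iOL B) to 9 with a sample left out. Sites in every sample were 1 with at least 10 tags, 0 in the narrow window and without repeated peaks, and 3 to 5 with a sample left out. In the narrow window and without repeated peaks each share of peaks found again was 0%, for the other replicate and for the other stage alike. These shares rested on 3 to 6 member peaks per sample in the narrow window and 1 to 7 without repeated peaks. With at least 10 tags the share was 75% from OLP A to OLP B (3 of 4) and 9.09% from iOL B to iOL A (1 of 11). The other adhesion genes with a peak fell from 22 to 8 with at least 10 tags or a score of at least 50, and to 9 in the narrow window or without repeated peaks. The causes were not tested beyond the smaller number of peaks in each setting.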
